A study of Rattus norvegicus with 12 samples.

Results

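The miR-183 cluster consists of miR-183, miR-96 and miR-182, 3 microRNAs (miRNAs) that lie close together on 1 chromosome. Its 3 probes, rno-miR-183, rno-miR-96 and rno-miR-182, were taken by name from the 420 endogenous probes of a 429-probe panel. The cluster was selected on the counts of the miR-183 probe, which were higher in pregnant than in control rats. That difference is therefore described without a test, while miR-96 and miR-182 were included for their place beside it. The question was whether these cluster mates followed miR-183 in the pregnant rats.

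Plasma was taken from 12 female Wistar rats, 1 sample per rat, and freed of platelets by centrifugation. The pregnant group held 6 rats at gestational age E14.5, aged 103, 104, 110, 110, 269 and 373 days, and the control group held 6 non-pregnant rats aged 110, 111, 112, 112, 239 and 269 days. Blood was drawn from the heart after death in both groups, and a rice miRNA, osa-miR414, was added to every sample during RNA preparation. The miRNAs were counted on the nCounter, an assay in which each molecule is extended with a tag, hybridised to a probe carrying a fluorescent barcode, and counted without amplification.

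miR-183, miR-96 and miR-182 are made from a shared primary transcript and have closely related seeds, the stretch near the 5′ end that pairs with target messages. They are best known from sensory cells, among them photoreceptors and the hair cells of the inner ear, and are also made in epithelia and endocrine cells. Plasma holds miRNAs released by many tissues and blood cells, so a plasma level does not name its source.

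The mature sequences are given here because relatedness of the 3 miRNAs bears on how their probes are read. They come from RefSeq on rat build GRCr8, where all 3 were matched by name. Capitals mark the seed, bases 2 to 8, in the cluster members.
rno-miR-183-5p: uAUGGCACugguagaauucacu
rno-miR-96-5p: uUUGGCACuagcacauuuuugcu
rno-miR-182: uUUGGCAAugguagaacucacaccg

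All 3 mature sequences lie on the minus strand of chromosome 4. That of miR-183 is at chr4:59756106-59756127, that of miR-96 at chr4:59755901-59755923 and that of miR-182 at chr4:59752249-59752273. The hairpins span 3908 bases, with 97 bases between those of miR-183 and miR-96 and 3533 bases between those of miR-96 and miR-182. They overlap no protein-coding gene (0 in RefSeq), and the protein-coding neighbours are Nrf1 and Ube2h. RefSeq lists 2 mature forms for miR-183 and for miR-96 and 1 for miR-182, and the probe names carry no arm.

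The seeds of miR-183 and miR-96 were equal at 6 of 7 bases, those of miR-96 and miR-182 at 6 and those of miR-183 and miR-182 at 5. The longest stretch that miR-183 shared with miR-182 was UGGUAGAA, outside the seed. With miR-96 it shared UGGCACU, and miR-96 and miR-182 shared UUUGGCA. Among 724 mature rat miRNAs in the RefSeq table, 0 others had bases 2 to 7 of any member. Whether a probe of 1 member also counted another was not tested.

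The sum of endogenous counts was 6969 to 10176 in the control rats and 5163 to 30301 in the pregnant rats. Pregnant replicates 5 and 6 had the highest sums, 24010 and 30301. Scaling by TMM, which sets most probes equal between rats, brought the effective totals to between 8395 and 14671. The lowest count of any probe in the table was 1.

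miR-183 was low in every control rat and higher in the pregnant group, where most of its counts came from 2 rats. In control replicates 1 to 6 its deposited counts were 4, 2, 3, 4, 2 and 2, and in pregnant replicates 1 to 6 they were 6, 4, 4, 5, 24 and 18. The control counts had a median of 2.5, a mean of 2.83 ± 0.983 (SD, n = 6) and a maximum of 4. The pregnant counts had a minimum of 4, a median of 5.5, a mean of 10.2 ± 8.64 (SD, n = 6) and a maximum of 24. The groups met at a count of 4 and did not otherwise overlap. The lowest pregnant count was at or above the highest control count in 2 of the 420 probes (0.476%), miR-183 being 1 of them, and nothing is read from this since the cluster was selected on that difference.

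Summed over the group, miR-183 gave 17 counts in control rats (95% exact Poisson interval 9.90 to 27.2) and 61 in pregnant rats (46.7 to 78.4). These intervals cover counting error only. Pregnant replicates 5 and 6 held 42 of the 61 counts (68.9%), and they also held 59.5% of all endogenous counts of the pregnant group. The other 4 pregnant rats held 19. For 102 of the 420 endogenous probes (24.3%), the highest counts were those of pregnant replicates 5 and 6, and miR-183 was the 1 cluster member among them. Ties were not included. miR-96 missed by a tie, with 21 counts in pregnant replicate 5 and 16 in both pregnant replicate 6 and control replicate 6.

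miR-96 had the highest mean count of the 3 probes and had close means in the control and pregnant groups. Its counts were 14, 14, 12, 8, 4 and 16 in control replicates 1 to 6 and 10, 8, 5, 9, 21 and 16 in pregnant replicates 1 to 6. The control mean was 11.3 ± 4.50 and the pregnant mean 11.5 ± 5.89 (SD, n = 6 each), with sums of 68 and 69. The highest count was that of pregnant replicate 5, and the groups overlapped over nearly their whole range. Probes differ in efficiency, so the counts of different miRNAs do not give their relative amounts.

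miR-182 was barely counted in any rat. Its counts were 1, 3, 4, 1, 6 and 6 in control replicates 1 to 6 and 3, 5, 2, 2, 1 and 2 in pregnant replicates 1 to 6. The control mean was 3.5 ± 2.26 and the pregnant mean 2.5 ± 1.38 (SD, n = 6 each), with sums of 21 and 15. The groups overlapped, and pregnant replicates 5 and 6, where miR-183 was highest, had 1 and 2 counts of miR-182. By mean count over the 12 rats, miR-182 ranked 384 of 420 endogenous probes, miR-183 ranked 237 and miR-96 ranked 170.

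**Figure D1:**
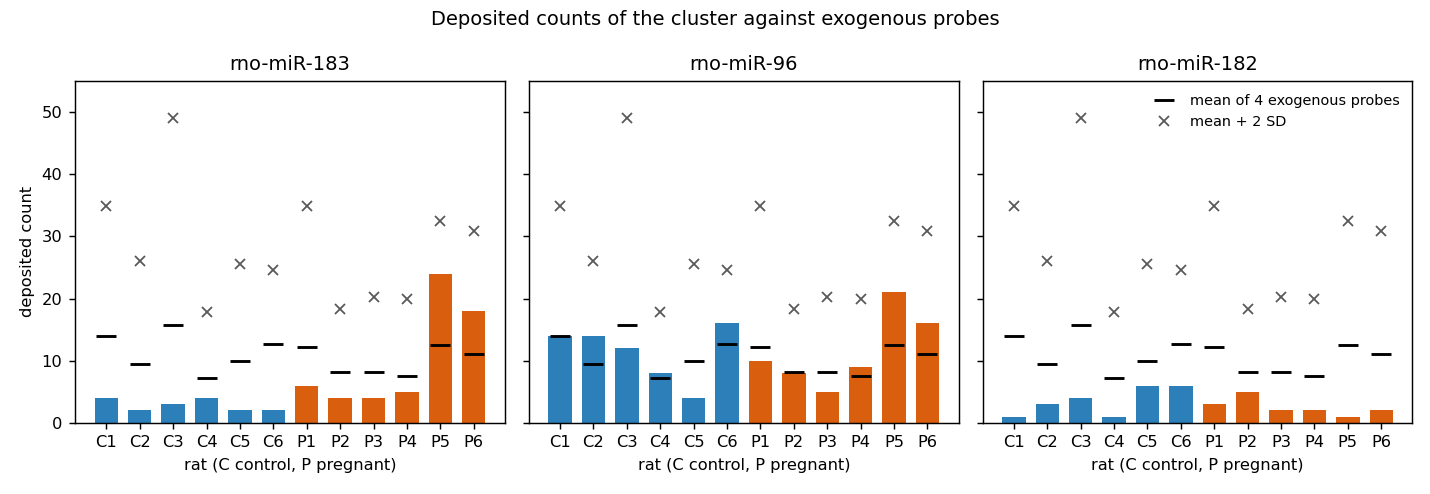
Deposited count of each cluster member (y axis, counts) in each rat (x axis, C1 to C6 control in blue, P1 to P6 pregnant in orange), with the mean (dash) and mean + 2 SD (cross) of 4 exogenous probes in the same rat. miR-183 reached 24 and 18 in P5 and P6 and stayed at 6 or below in the other rats, miR-182 stayed at 6 or below throughout, and no bar reached its cross.

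The counts were set against 4 exogenous probes, for which nothing had been added. They were the plant probes ath-miR159a and osa-miR442 and the worm probes cel-miR-248 and cel-miR-254. Their mean lay between 7.25 and 15.75 counts in the 12 rats. miR-183 was above it in 2 rats, pregnant replicates 5 and 6, and in the other 10 rats it was below. It was above the mean + 1 SD of these probes in 1 rat and above the mean + 2 SD in 0 rats. As a ratio to the exogenous mean, miR-183 ranged from 0.157 to 0.552 in control rats and from 0.485 to 1.92 in pregnant rats.

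miR-96 was above the exogenous mean in 6 rats, 3 of each group, and above the mean + 1 SD in 0. miR-182 was above the exogenous mean in 0 rats, and its highest ratio to that mean was 0.606. At mean + 2 SD, which lay between 17.9 and 49.1 counts, none of the members was above background in any rat. The 4 probes differed in level, which widens this cut. The mean over the 12 rats was 19.5 counts for ath-miR159a, 15.4 for cel-miR-254, 4.5 for osa-miR442 and 3.58 for cel-miR-248. The added osa-miR414 was itself above the cut in only 4 of the 12 rats, so a count below it does not show absence. Its mean of 19.5 counts equalled that of ath-miR159a, for which nothing was added, and the authors judged osa-miR414 undetected. A single count of 4, the highest in control rats for miR-183, has a 95% exact Poisson interval of 1.09 to 10.2, and the count of 24 has one of 15.4 to 35.7.

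**Figure D2:**
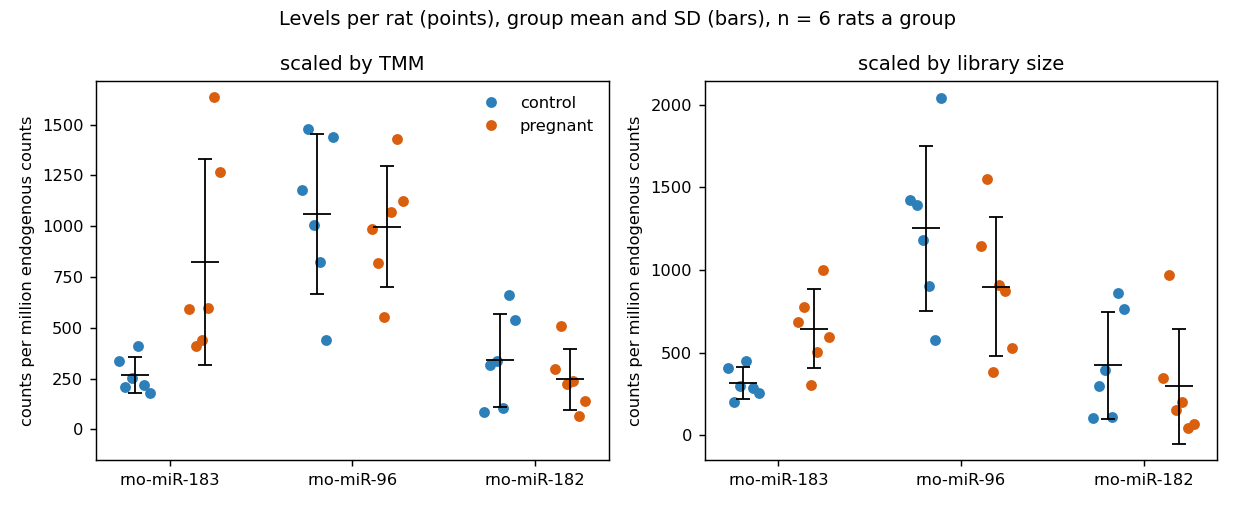
Level of each cluster member per rat (points) as CPM (y axis), with group mean and SD (bars, n = 6 rats a group). CPM is counts per 1000000 of the TMM effective total on the left and of the endogenous total, the library size, on the right. For miR-183, 5 of 6 pregnant rats lay above the highest control rat under both scalings, while the groups overlapped for miR-96 and miR-182. Nothing is read from the former, since the cluster was selected on that difference.

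After TMM scaling, miR-183 was at 268 ± 88.3 counts per 1000000 of the effective total (CPM) in control rats and at 823 ± 506 CPM in pregnant rats (SD, n = 6 each). The effective total differs from the endogenous count of a rat, so a TMM scaled CPM is not a share of its counts. The control rats ranged from 180 to 412 CPM with a median of 236, and the pregnant rats from 409 to 1636 CPM with a median of 593. Of the 6 pregnant rats, 5 were above the highest control rat. Scaled by library size alone, the means were 315 ± 94.8 and 644 ± 238 CPM, again with 5 of 6 pregnant rats above the highest control rat. Nothing is read from these counts of rats, since the cluster was selected on that difference. The share of all endogenous probes with as many was not counted.

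The fitted log2 fold change of miR-183, pregnant over control, was 1.68 (standard error, SE, 0.43). It came from edgeR on all 420 endogenous probes, because miR-183 did not have at least 10 counts in at least 6 rats. It was the third highest of the 420 probes, whose median was 0.06. Nothing is read from this rank, since the cluster was selected on that difference. The fold change depended on the scaling and on 2 rats. It was 1.01 with library size in place of TMM, under which the median of all probes was -0.42, and 0.87 without pregnant replicates 5 and 6, a choice made after the data had been seen. After subtraction of the exogenous mean and division by the total left in each rat it was 0.37, with 10 of the 12 rats at the floor. The division itself moved this value, since miR-182, at the floor in all 12 rats, was at -0.68 in the same setting.

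No rise of the cluster mates was seen in pregnant rats, and the fitted log2 fold changes of miR-96 and miR-182 were below 0. miR-96 was at 1060 ± 393 CPM in control and 997 ± 297 CPM in pregnant rats (SD, n = 6 each). Its fitted log2 fold change was -0.11 (SE 0.26), with an adjusted p of 0.967 from edgeR over 187 probes. Without the older rats its log2 fold change was 0.16 (SE 0.36). miR-182 was at 340 ± 230 and 246 ± 152 CPM (SD, n = 6 each). Its fitted log2 fold change was -0.53 (SE 0.48), with an adjusted p of 0.939 from edgeR over all 420 probes. Neither difference exceeded the spread between rats. With counts this near those of the exogenous probes and SEs of this size, the fits cannot tell an absent rise from a modest one.

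Neither mate was called (0 of 2), and edgeR called 0% of the 187 probes that reached 10 counts in 6 or more rats and 0% of the 420 probes in the fit on all of them. Without adjustment, 11 of the 187 probes (5.88%) and 20 of the 420 (4.76%) had a p below 0.05. Among the 187 probes, DESeq2 called 0 (8 without adjustment), limma-voom 0 (6) and an exact permutation test on log2 CPM 0 (6). Only miR-96 of the 3 members was among the 187.

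**Figure D3:**
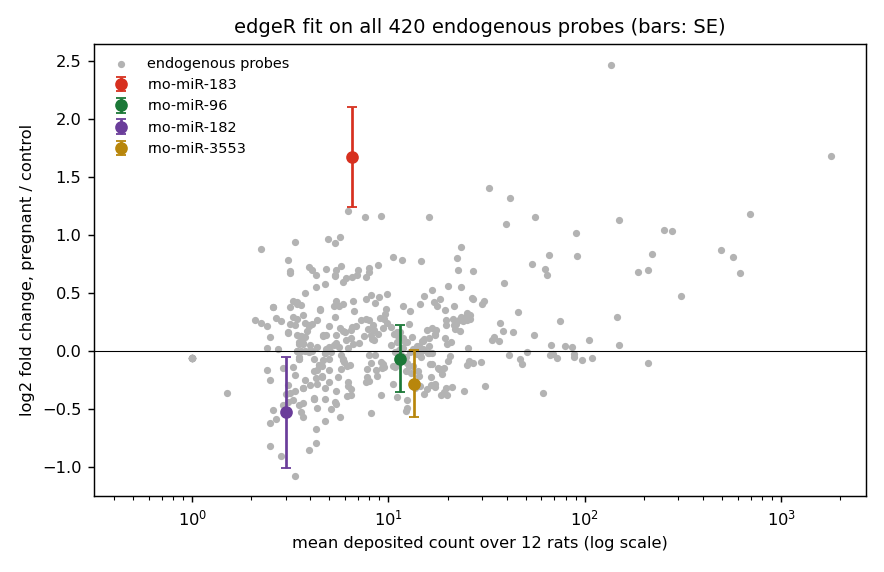
Log2 fold change, pregnant over control, from the edgeR fit on all 420 endogenous probes (y axis) against the mean deposited count over the 12 rats (x axis, log scale), with SE bars for the cluster members and miR-3553. miR-183, on which the cluster was selected, stood at 1.68 at a mean of 6.5 counts, and miR-96 and miR-182 lay below 0.

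A ratio of members within a rat needs no scaling, and is compared here between the groups only. The log2 ratio of miR-96 to miR-183, with 1 added to each count, had a median of 1.64 in control and 0.46 in pregnant rats. That of miR-182 to miR-183 had a median of 0.37 in control and -0.90 in pregnant rats. Both ratios contain miR-183 and are given without a test, and in most rats miR-183 lay below the exogenous mean.

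The ratio of miR-182 to miR-96 does not contain miR-183. On the log2 scale it was -1.53 ± 1.15 in control and -1.79 ± 1.05 in pregnant rats (SD, n = 6 each). The difference of -0.26 did not exceed the spread between rats (two-sided exact permutation test over 924 assignments, p = 0.690). miR-182 lay below the exogenous mean in all 12 rats, and miR-96 was above it in only 6. The test therefore cannot tell a kept proportion from a changed one.

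The mates were also set against miR-183 rat by rat. Among the 6 pregnant rats, log2 CPM of miR-96 correlated with that of miR-183 with Pearson r = 0.82 (exact permutation p = 0.0292, adjusted p = 0.075 over 9 relations) and Spearman rho = 0.94 (exact permutation p = 0.0167, adjusted p = 0.075). Among the 6 control rats r was -0.20 (exact permutation p = 0.703, adjusted p = 0.703) and rho was -0.54 (exact permutation p = 0.297). Over all 12 rats r was 0.22 and rho -0.10 (permutation p = 0.502 and p = 0.751). Without the 2 rats farthest from the median of miR-183, r was 0.75 among pregnant rats, -0.41 among control rats and -0.19 over all, where its sign turned. No relation with miR-96 passed adjustment.

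miR-182 correlated negatively with miR-183. The Pearson r was -0.87 among pregnant rats (exact permutation p = 0.0153), -0.88 among control rats (exact permutation p = 0.0333) and -0.64 over all 12 (permutation p = 0.0239), and each had an adjusted p of 0.075, above the threshold. When deviations from the group means were taken over the 12 rats, r was -0.74 and passed it (permutation test, adjusted p = 0.0481). Deviations within a group are not independent, which the shuffling did not allow for, so this p may be too small. Spearman rho was -0.83 (exact permutation p = 0.0583), -0.66 (exact permutation p = 0.175) and -0.69 (permutation p = 0.0159). Without the 2 rats farthest from the median of miR-183, r was -0.53, -0.41 and -0.45, so much of the relation rested on those rats. The points share the TMM factor of each rat, and miR-182 had at most 6 counts. With library size in place of TMM, r over the 12 rats was -0.30. On log2 of the count + 1, with no scaling, it was -0.57 (permutation test, adjusted p = 0.152).

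For miR-96 with miR-182, r was -0.34 over all 12 rats (permutation p = 0.280, adjusted p = 0.420) and rho -0.24 (permutation p = 0.445). Among pregnant rats r was -0.56 (exact permutation p = 0.219) and rho -0.66 (exact permutation p = 0.175), and among control rats r was -0.25 (exact permutation p = 0.656) and rho -0.26 (exact permutation p = 0.658). Without the 2 rats farthest from the median of miR-96, r was -0.06 over all rats, -0.98 among pregnant rats and 0.61 among control rats. With library size in place of TMM it was 0.41.

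**Figure D4:**
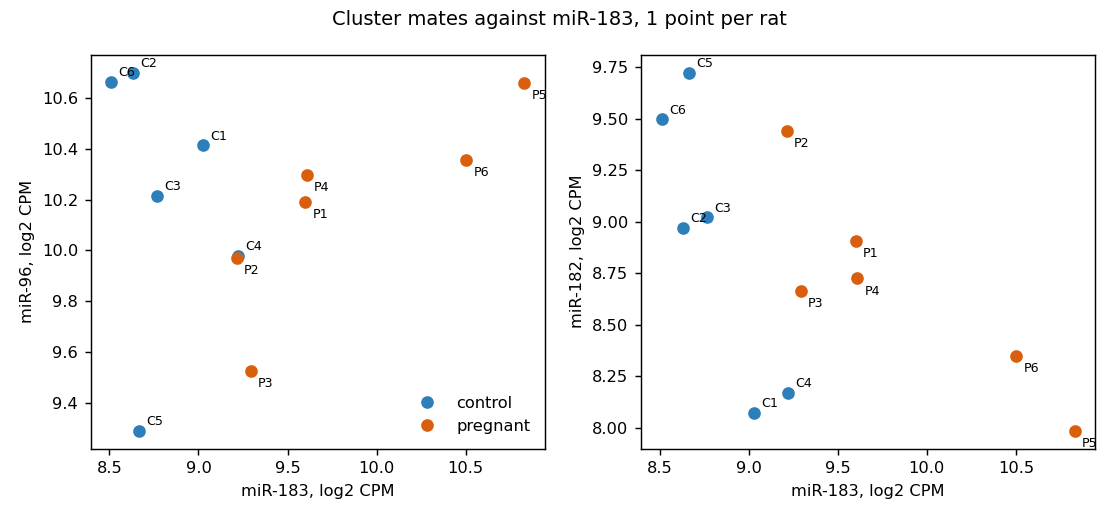
Log2 CPM (TMM scaled) of miR-96 (left, y axis) and miR-182 (right, y axis) against that of miR-183 (x axis), 1 point per rat, control in blue and pregnant in orange. P5 and P6 had the highest miR-183, and their miR-96 was within the range of the control rats while P5 had the lowest miR-182 of all 12 rats.

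Age was a contrast on which the cluster had not been chosen. The 4 rats of 200 days or more, 2 in each group, were compared with the 8 younger rats in a fit that also held the group. The counts of miR-183 had a minimum, median and maximum of 2, 4 and 6 in older rats and of 2, 4 and 24 in younger rats. Its log2 fold change, older over younger, was -0.64 (SE 0.46, edgeR adjusted p = 0.866 over 420 probes). Both rats with more than 6 counts were younger pregnant rats.

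In the same fit miR-96 had a log2 fold change of 0.04 (SE 0.29, edgeR adjusted p = 0.960 over 187 probes), a value whose sign turned with the scaling. miR-182 had one of -0.46 (SE 0.54, edgeR adjusted p = 0.866 over 420 probes). None of the 3 passed the threshold, and edgeR called 0% of the 187 and 0% of the 420 probes, with 12 (6.42%) and 27 (6.43%) below 0.05 without adjustment. DESeq2 and limma-voom also called 0 of the 187, with 13 and 11 without adjustment. Without pregnant replicate 2, edgeR called 3 probes.

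The panel also holds a probe for miR-3553, whose hairpin lies opposite that of miR-183 and overlaps it by 106 bases. This probe was singled out after its values had been seen. Its mature sequence, on the plus strand at chr4:59756105-59756127, is shown with capitals for the 22 bases complementary to miR-183.
rno-miR-3553: cAGUGAAUUCUACCAGUGCCAUA

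miR-3553 had 7 to 21 counts in control rats, with a median of 14, and 5 to 20 in pregnant rats, with a median of 11. Its sums were 87 and 74 counts, and its log2 fold change was -0.32 (SE 0.28). In pregnant replicates 5 and 6 it had 17 and 12 counts, within the range of the control rats.

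The 5 probes among the 187 whose log2 CPM was most like that of miR-183 over the 12 rats were miR-450a (r = 0.89), miR-200a (r = 0.88), miR-144 (r = 0.83), miR-192 (r = 0.81) and miR-215 (r = 0.79). Within the control rats r was 0.87 for miR-450a, 0.43 for miR-200a, 0.29 for miR-144, 0.11 for miR-192 and 0.36 for miR-215. miR-96 was most like miR-19b (0.74), miR-369-5p (0.73) and miR-376a (0.72). miR-182 was most like miR-871 (0.72), miR-3596c (0.67) and miR-3581 (0.62). The lists had no probe in common, and these correlations are a description, since the probes share the scaling of each rat.

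Other miRNAs of sensory and endocrine cells were counted at low levels, and 0 of 8 were called, against 0% of all 420 probes. Their summed CPM had a median of 4574 in control rats (range 3748 to 7094) and of 4265 in pregnant rats (3168 to 5137). In the fit on all 420 probes, 1 of the 8 had a log2 fold change above 0, against 238 of 420 (56.7%), and the median was -0.41 against 0.06. The 1 above 0 was miR-375, known from endocrine cells of the pancreas, at 0.32 with counts of 2 to 31. Only miR-7a, also abundant in endocrine cells, was in the fit of 187 probes, where it was at -0.34 (SE 0.36).

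Of 7 miRNAs of epithelia, 5 had a log2 fold change above 0, against 238 of all 420 probes (56.7%). The median was 0.23 against 0.06, and 0 were called, against 0% of all 420. The highest in the fit of 187 probes was miR-203, a miRNA of the skin, at 1.08 (SE 0.44), and the lowest was miR-200c at -0.34 (SE 0.30). miR-200a, the probe second most like miR-183, was at 0.40 (SE 0.17).

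Markers of other sources were summed as TMM scaled CPM in each rat, so a sum is not a share of the counts of that rat. The red cell list, of which miR-451 and miR-144 were measured (2 of 3), had a median of 37957 in control rats (range 15732 to 75902) and of 49386 in pregnant rats (5621 to 182134). The liver list (miR-122, miR-192 and miR-194) had medians of 40840 (13110 to 279693) and 235465 (8891 to 633814). The platelet list had medians of 40060 (27663 to 65706) and 41284 (4395 to 201106), with miR-24 at 1 count in every rat. The muscle list had medians of 12381 (9256 to 21318) and 10080 (7485 to 26516), with miR-208 at 1 count in every rat. The log2 fold change was above 0 for 2 of 2 red cell, 3 of 3 liver, 4 of 5 platelet and 2 of 6 muscle probes, against 238 of all 420 (56.7%). The platelet and muscle totals include miR-24 and miR-208, whose counts did not vary. None of these probes was called, against 0% of all 420. The count ratio of miR-451 to miR-23a rises with haemolysis. It was 5.49 in pregnant replicate 5 and 1.30 in pregnant replicate 6, the highest and lowest of the pregnant rats. The control rats ranged from 0.945 to 6.63. Of the probes most like miR-183, miR-144 is on the red cell list and miR-192 on the liver list. The part of these sources in the miR-183 counts was not tested.

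**Figure D5:**
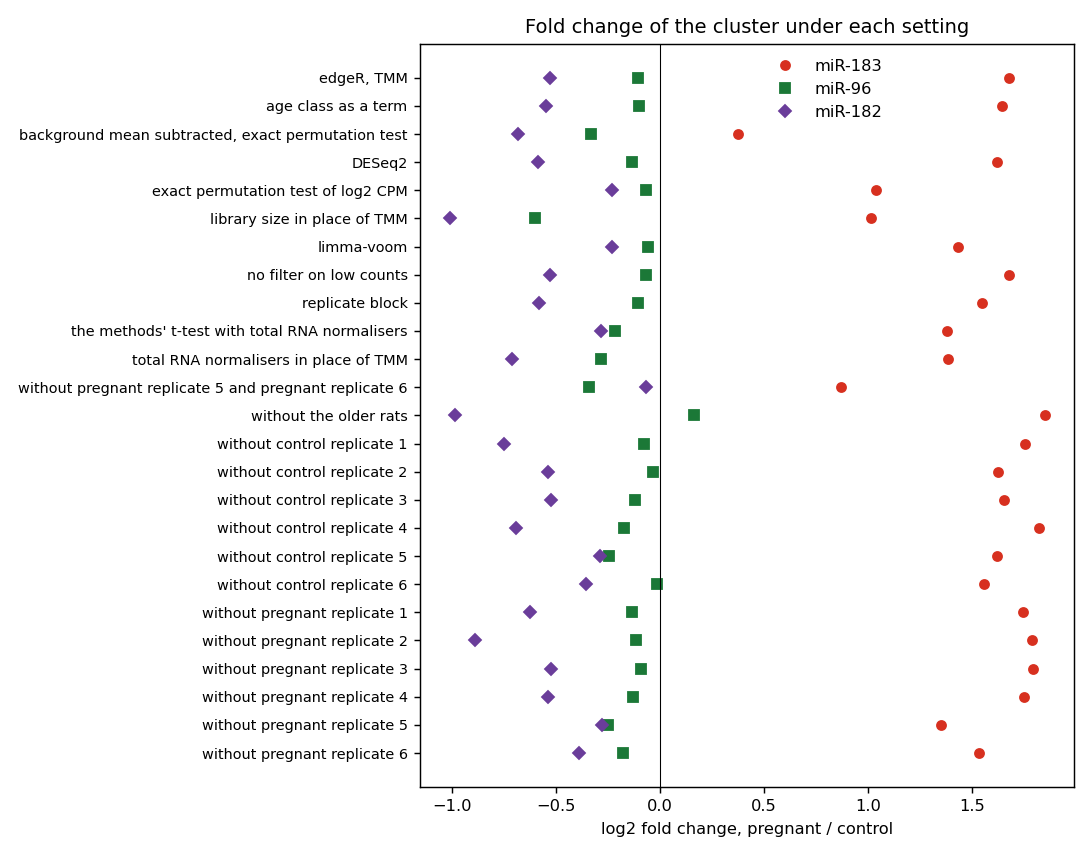
Log2 fold change of each cluster member, pregnant over control (x axis), under each scaling, test, filter and set of rats tried (y axis). miR-183, on which the cluster was selected, lay above 0 under every one, from 0.37 to 1.85. miR-182 lay below 0 under every one, and miR-96 lay below 0 except at 0.16 without the older rats. After background subtraction miR-182 was at the floor in every rat, so that value reflects only the scaling.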

How the data were processed

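Raw counts per probe, whole numbers read on the nCounter with a rat miRNA codeset, were deposited by the authors without background correction or normalisation. The authors processed them further in nSolver, and those values were not used here. Control probes other than the exogenous ones were left out. All 12 columns were used (0 left out). Groups and ages came from the sample labels. The rats are separate animals.

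The members and lists were chosen with earlier results of these data known. edgeR's quasi-likelihood test with TMM was fitted to the 187 endogenous probes that reached 10 deposited counts in 6 or more rats, with Benjamini-Hochberg adjustment at 0.05, and to all 420 for members outside this filter. The SE of a fold change was its size over the root of F, and log2 CPM used a prior count of 2. Background was the mean and SD of 4 exogenous probes without a spike-in. Correlations and the ratio used permutation tests, exact for 6 rats and with 100000 resamples for 12. Named probes were the members, their seed relatives, the 5 probes most like miR-183 and the 3 most like each mate, and, of the epithelial and the neuroendocrine and sensory lists, the highest and lowest among the 187 probes. miR-375 was added after its value had been seen. The total endogenous count of each rat, 5163 to 30301, limits the precision for low probes.

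Alternatives were other scalings (library size, and the 38 endogenous probes above mean + 1 SD of background in all rats), filters, tests (DESeq2, limma-voom, permutation, the methods' t-test), age terms, a replicate block and leaving out rats. Correlations were also taken with no scaling, on log2 of the count + 1. Same-numbered rats are different animals. The procedures were tested on simulated data. Fits were made with DESeq2 1.42.0, edgeR 4.0.16 and limma 3.58.1 under R 4.3.3, and other steps with scipy 1.17.1, pandas 2.3.3 and numpy 2.4.6 under Python 3.11.15. Mature sequences and coordinates were those of RefSeq on GRCr8.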

Additional observations from a re-analysis of the deposited data

How the results depend on the processing

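The log2 fold change of miR-183 stayed above 0 under all 24 alternatives. Nothing is read from this sign, since the cluster was selected on that difference and the alternatives use the same rats. The fold change of miR-183 was 1.04 from means of log2 CPM, 1.01 with library size, 0.37 after background subtraction and 0.87 without pregnant replicates 5 and 6, the last chosen after the data had been seen, and 1.35 to 1.82 with 1 rat left out. For miR-96 it was 0.16 without the older rats, -0.60 with library size, -0.34 without pregnant replicates 5 and 6 and -0.25 to -0.02 with 1 rat left out. For miR-182 it was -1.01 with library size, -0.07 without pregnant replicates 5 and 6 and -0.89 to -0.28 with 1 rat left out. Under no alternative did either mate pass the threshold, and adjusted p ran from 0.428 to 1 where no single rat was left out. The 0.428 was that of miR-182 in the permutation test after background subtraction. All its values were then at the floor, so that test compared only the totals of the rats. The lowest elsewhere was 0.530, for miR-182 in edgeR with library size. In the fits without pregnant replicates 5 and 6 or without the older rats, miR-96 fell outside the filter and came from all 420 probes. No member had at least 10 counts in all 12 rats, so that filter gave no value for them. Probes called for pregnant against control stayed at 0. For older against younger rats they were 0 to 3 with 1 rat left out, the 3 without pregnant replicate 2. The age difference of miR-96 was -0.051 per 100 days, -0.0060 with library size, and -0.12 to 0.23 with 1 rat left out. The correlation of miR-183 with miR-96 was -0.065 with library size and -0.010 with the 38 normalisers, and that of miR-96 with miR-182 was 0.41 and 0.29. On log2 of the count + 1, with no scaling, the former was 0.48 and the latter -0.30. The correlation of miR-183 with miR-182 was -0.74 for deviations from group means (permutation test, adjusted p = 0.0481, below the threshold, against 0.075 as reported and up to 0.628 under its other alternatives) and -0.76 to -0.52 with 1 rat left out. The 0.0481 may be too small, since deviations within a group are not independent. The ratio of miR-182 to miR-96 differed by 0.07 without pregnant replicate 5 and 0.14 without control replicate 5, and by -0.54 to 0.14 with any 1 rat left out. Rats above background were 2 for miR-183 and 6 for miR-96 at the exogenous mean, and 1 for miR-183 at the mean + 1 SD. The cause of these shifts was not tested. The numbers did not pair the rats, since same-numbered rats had correlations of deviations from -0.34 to 0.27 and 1 of 6 was closest to its own number. With the replicate block, the log2 fold change was 1.55 for miR-183, -0.11 for miR-96 and -0.58 for miR-182, 0 probes were called (3 without adjustment, against 11), the age difference of miR-96 was -0.014, and the ratio differed by -0.26 with an exact permutation p of 0.875.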
